A study of Homo sapiens with 6 samples.

Results

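The hypoxia pathway genes described here are 10 genes that sense oxygen or answer to its lack. They are the transcription factor subunits HIF1A and ARNT, the prolyl hydroxylases EGLN1, EGLN2 and EGLN3, the ubiquitin ligase subunit VHL, the asparaginyl hydroxylase HIF1AN, and the targets VEGFA, BNIP3 and BNIP3L. They were taken by name, without a cut on any measured value. Earlier results of these data were known when they were chosen. The deposited table counts reads per RefSeq protein accession, with each isoform in a row of its own, and every row whose accession belongs to 1 of these genes was taken. This gave 53 of the 109018 rows, for 10 of the 19049 genes that could be matched by accession. Reads were summed over the rows of a gene, and the rows were also read singly.

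The cells were K562, a human chronic myeloid leukaemia line that carries the BCR-ABL fusion and resembles early erythroid cells. Stable lines were made by infection with a lentiviral shRNA vector, and 2 groups of 3 RNA-seq libraries were compared. The sh-luc group expressed an shRNA against luciferase, which human cells lack. The sh-IUR-5 group expressed an shRNA against lncRNA-IUR-5, a long noncoding RNA that the sample labels call lncRNA-IIRX. The labels name 1 shRNA per group and no low-oxygen or drug treatment, and the lncRNA has no row in a table of proteins, so its knockdown was not analysed here.

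In cells with enough oxygen, the prolyl hydroxylases modify the HIF alpha subunits, VHL binds the modified protein, and the proteasome destroys it. HIF1AN adds a further hydroxyl group that keeps the alpha subunit from its coactivators. When oxygen is low these enzymes slow down, the alpha subunit builds up, pairs with ARNT and switches on genes for blood vessel growth, glycolysis and the removal of mitochondria. This control acts on protein, whereas the libraries measured RNA.

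The libraries held 21023739 to 31481109 reads on protein rows. All 11 K562 marker genes examined were detected, among them the embryonic and fetal globins, GATA1, BCR and ABL1, while none of 7 markers of other cell types reached the minimum level for a test, a mean RPKM (reads per kilobase of row length, scaled to library size) of 1. Of the K562 markers, 4 were higher and 5 lower in sh-IUR-5, with HBZ, HBE1, HBG1, HBG2 and GATA1 the lower ones, and their part in the results below was not tested. Library 1 of each group carries a series number of its own in the labels, and libraries 2 and 3 of each group share a number. The cells are described as independent groups without naming separate cultures, so the p-values measure the spread between these libraries, part of which may be technical. Fewer cells that express a gene and less RNA of it per cell cannot be told apart in such bulk samples.

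HIF-1 recognises a short core in its target promoters, ACGTG or GCGTG, and the promoter windows of these genes were read for it because several of them are known HIF targets themselves. RefSeq windows on GRCh38.p14, from 250 bases before to 50 bases after a gene's start, were at hand for 7 of the 10 genes, and 4 of the 9 windows held the core on either strand. The stretches around it are shown 5′ to 3′ on the gene's strand, with the core or its reverse complement (CACGT or CACGC) in capitals.
HIF1A, chr14:61695297-61695325, plus strand: tggctgagagcgGCGTGggctggggtggg
EGLN1, chr1:231422288-231422312, minus strand: gggccgtggtgtACGTGcagagcgc
EGLN2, chr19:40799130-40799159, plus strand: gcggggcgcggtCACGTGcccaccgggcga
BNIP3, chr10:131982011-131982078, minus strand: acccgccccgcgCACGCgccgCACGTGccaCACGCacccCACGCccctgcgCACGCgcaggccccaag

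The stretch of EGLN1 lay closest to the start, with the core 13 bases before it, and that of EGLN2 began 49 bases before it. BNIP3 had the densest run, 6 matches from 143 bases before the start. In EGLN2 and within the BNIP3 run, CACGTG reads as ACGTG on both strands and was counted as 2 overlapping matches. The windows of ARNT, EGLN3 and HIF1AN and a second window each of HIF1A and EGLN2 had no match. For VHL, VEGFA and BNIP3L no window was at hand. Of all 35116 windows, 21.4% held ACGTG, 36.5% held GCGTG and 48.4% held either, so a match in 4 of 9 windows was close to the background. A match is a run of letters, not a measured binding site, and a link of matches to the changes given below was not tested. Of the 4 genes with a match, HIF1A and EGLN1 rose, EGLN2 fell, and BNIP3 did not pass the test.

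Reads were then compared between the sh-IUR-5 and sh-luc libraries. Of the 10 genes, 6 were higher in sh-IUR-5 cells (HIF1A, ARNT, EGLN1, VHL, HIF1AN and BNIP3L), 1 was lower (EGLN2), and EGLN3, VEGFA and BNIP3 did not pass edgeR's quasi-likelihood test at a Benjamini-Hochberg adjusted p of 0.05. Among all 22062 features tested, 20.8% were called higher and 19.8% lower. Many of these features are single rows without a gene match. In a fit of the 10290 matched genes alone, 2572 were higher and 2378 lower. The median log2 fold change was 0.39 over the 10 genes and 0.0077 over all features. The 3 sh-IUR-5 libraries lay above all 3 sh-luc libraries for 7 of the genes and below them for 1, whereas over all features 26.3% lay above and 25.1% below. Levels are given as RPKM per length of a gene's longest row, with library sizes adjusted by the trimmed mean of M-values (TMM), and folds come from the fit.

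**Figure D1:**
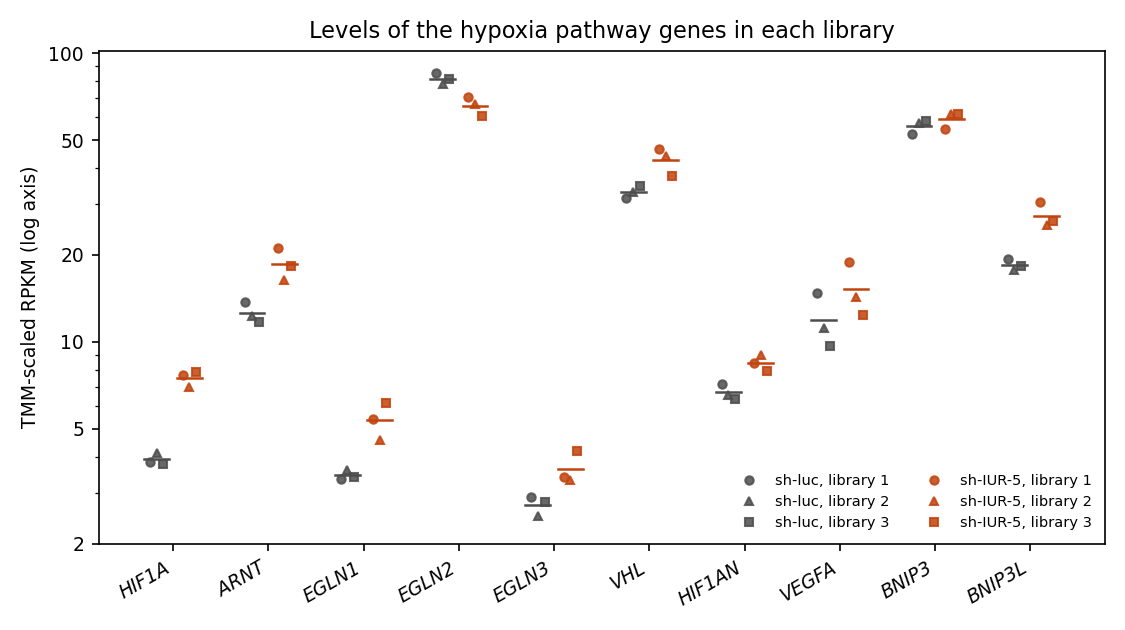
Levels of the 10 genes in each library as TMM-scaled RPKM on a log axis, with 1 symbol per library and a line at the mean of each group of 3. HIF1A shows the widest gap, 3.76 to 4.13 in sh-luc against 6.95 to 7.86 in sh-IUR-5, whereas EGLN2 is the gene whose sh-IUR-5 libraries all lie lower, and the groups of VEGFA and BNIP3 overlap.

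HIF1A, the oxygen-regulated alpha subunit of HIF-1, had the largest log2 fold change of the 10 genes with TMM scaling, although EGLN1 was above it (0.71 against 0.66) with length and GC trends removed. The gene lies on hg38 at chr14:61695513-61748259 on the plus strand, with 15 exons in its canonical transcript, and overlaps the antisense genes HIF1A-AS1 and HIF1A-AS3. A strand setting for the counting is not given in the sources used here, so reads of genes on opposite strands may not be told apart. Its 3 rows together held 211, 205 and 187 reads in sh-luc libraries 1 to 3 against 670, 446 and 517 in those of sh-IUR-5. Per length and with TMM scaling these were levels of 3.85, 4.13 and 3.76 RPKM against 7.65, 6.95 and 7.86 RPKM. Every sh-IUR-5 library was thus above every sh-luc library, with means of 3.91 ± 0.192 and 7.49 ± 0.477 (SD, n = 3 each). The difference was 1.91-fold, a log2 fold change of 0.94 with a standard error of 0.0966 (edgeR adjusted p = 6.5e-06), which was above that of 98.5% of all features.

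ARNT encodes the beta subunit that HIF alpha subunits need to bind DNA, and its protein is not degraded by oxygen. It lies at chr1:150809713-150876708 on the minus strand. Its level was 13.7, 12.3 and 11.7 RPKM in the sh-luc libraries against 21.1, 16.4 and 18.3 RPKM in those of sh-IUR-5, so the groups did not overlap. ARNT was 1.48-fold higher in sh-IUR-5 cells (log2 fold change 0.57, SE 0.101, edgeR adjusted p = 0.00049). The ratio of HIF1A to ARNT within a library was 0.282, 0.337 and 0.32 in sh-luc and 0.362, 0.424 and 0.429 in sh-IUR-5. No scaling of library sizes can alter such a ratio, although the length and GC trends described below can. These ratios did not overlap, and the exact two-sided permutation test gave p = 0.1, the smallest it can give for 3 libraries against 3.

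The other HIF subunits moved in opposite directions. EPAS1, which encodes the HIF-2 alpha subunit, was low in sh-luc at 1.34 ± 0.0673 RPKM and rose to 2.48 ± 0.598 RPKM (log2 fold change 0.90, edgeR adjusted p = 0.000762). HIF3A, whose protein can restrain the other alpha subunits, fell from 1.45 ± 0.154 to 0.797 ± 0.055 RPKM (log2 fold change -0.87, edgeR adjusted p = 0.000848). ARNT2, the partner found mainly in neurons, held 0 reads in all 6 libraries, and a count of 0 allows up to 3 reads in a library.

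The 3 prolyl hydroxylases did not move together. EGLN1 (PHD2), the main regulator of HIF1A stability in most cells and itself a HIF target, held 92, 90 and 85 reads in sh-luc and 238, 147 and 202 reads in sh-IUR-5. Its levels of 3.35, 3.61 and 3.4 RPKM against 5.42, 4.56 and 6.12 RPKM did not overlap. It rose 1.56-fold (log2 fold change 0.64, SE 0.136, edgeR adjusted p = 0.00196). EGLN1 has 1 row in the table and lies at chr1:231363751-231422287 on the minus strand.

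EGLN2 (PHD1), the hydroxylase whose RNA is usually not raised by hypoxia, was the most abundant of the 10 genes in both groups and the only 1 that fell. Its level was 85.5, 78.3 and 81.4 RPKM in sh-luc and 70.4, 66.7 and 60.4 RPKM in sh-IUR-5, with no overlap. The fall was 1.24-fold (log2 fold change -0.31, SE 0.0786, edgeR adjusted p = 0.00589). This call depended on the scaling of the libraries, since with sizes set to total reads the log2 fold change was -0.11 (edgeR adjusted p = 0.279), and with limma on RPKM values it was -0.12 (adjusted p = 0.277). EGLN2 lies at chr19:40798996-40808434 on the plus strand and is overlapped there on the same strand by the readthrough gene RAB4B-EGLN2, so part of its reads could come from that transcript.

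EGLN3 (PHD3), often the most hypoxia-inducible of the family, was the lowest of the 10 genes. It held 45, 35 and 39 reads in sh-luc and 84, 60 and 78 in sh-IUR-5. The levels of 2.91, 2.5 and 2.78 RPKM lay below those of 3.4, 3.31 and 4.2 RPKM, yet the difference did not pass the test. Its log2 fold change of 0.41 had a standard error of 0.175 and a 95% interval from 0.034 to 0.78 (edgeR adjusted p = 0.0762). EGLN3 lies at chr14:33924227-34462774 on the minus strand, where it overlaps SPTSSA on the same strand and EGLN3-AS1 on the other.

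The balance among the hydroxylases was then followed within each library. EGLN2 exceeded EGLN1 25.5, 21.7 and 23.9-fold per length in the sh-luc libraries but 13, 14.6 and 9.87-fold in those of sh-IUR-5. The ratio was thus lower in every sh-IUR-5 library, by 0.94 on the log2 scale (exact permutation p = 0.1, the smallest possible). The ratio of EGLN3 to EGLN1 was 0.87, 0.692 and 0.816 against 0.628, 0.726 and 0.687, where the groups overlapped (exact permutation p = 0.2).

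**Figure D2:**
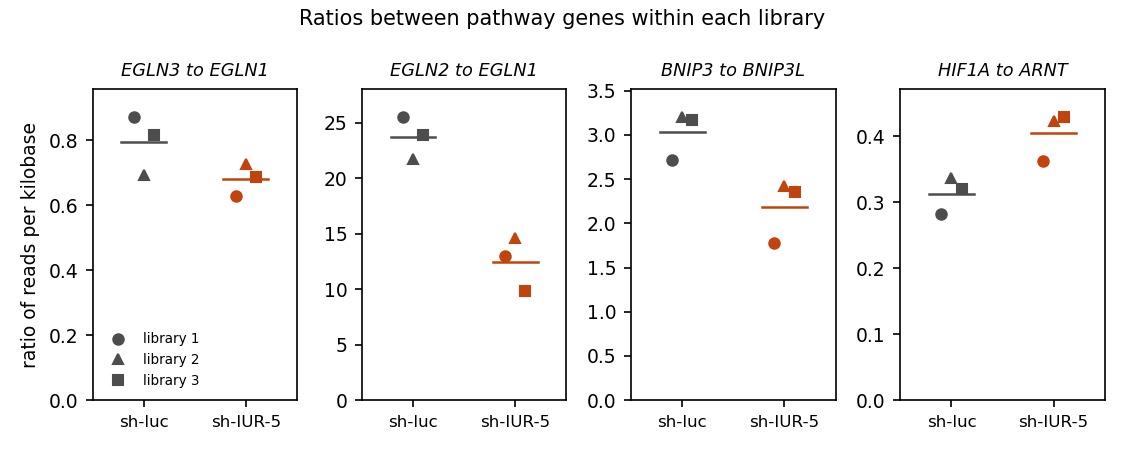
Ratios of reads per kilobase between pairs of the genes within each library, on axes that start at 0, with 1 symbol per library and a line at the group mean. The ratio of EGLN2 to EGLN1 runs from 21.7 to 25.5 in sh-luc and from 9.87 to 14.6 in sh-IUR-5, whereas the ratio of EGLN3 to EGLN1 overlaps between the groups.

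Downstream of the hydroxylases, VHL is the subunit that binds hydroxylated HIF alpha. It lies at chr3:10141778-10153667 on the plus strand, with 3 exons. It held 432, 413 and 435 reads in sh-luc and 1025, 714 and 624 in sh-IUR-5. Its levels were 31.4, 33.1 and 34.7 RPKM against 46.6, 44.2 and 37.7 RPKM, with library 3 of sh-IUR-5 nearest to the control group and no overlap. VHL rose 1.30-fold (log2 fold change 0.38, SE 0.0969, edgeR adjusted p = 0.00671).

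HIF1AN (FIH), which blocks the coactivator contact of HIF alpha, rose from 7.14, 6.57 and 6.33 RPKM to 8.46, 8.99 and 7.9 RPKM. The groups did not overlap, and the log2 fold change was 0.34 with a standard error of 0.108 (edgeR adjusted p = 0.0221). This call was lost without sh-luc library 2 (log2 fold change 0.33, adjusted p = 0.0616), sh-luc library 3 (0.30, adjusted p = 0.0845) or sh-IUR-5 library 2 (0.29, adjusted p = 0.0915), in DESeq2 (0.33, adjusted p = 0.0666), with no minimum level (0.29, adjusted p = 0.0715) and with edgeR's own filter on low counts (0.29, adjusted p = 0.0524). HIF1AN lies at chr10:100529072-100559998 on the plus strand and overlaps NDUFB8 on the other strand.

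The ligase that VHL works in did not rise as a unit. Of 8 genes for its other subunits and for proteins that control hydroxylase turnover, 3 rose, 4 fell and 1 did not pass, with a median log2 fold change of -0.011. Beside this, 20.8% of all features were called higher and 19.8% lower. The scaffold CUL2 rose from 24.9 ± 1.28 to 35.9 ± 3.16 RPKM (log2 fold change 0.53, edgeR adjusted p = 0.000185), as did the scaffold protein LIMD1 (0.71, adjusted p = 0.00366) and the hydroxylase-degrading ligase SIAH2 (0.45, adjusted p = 0.00365). The adaptor ELOB fell from 621 ± 31.7 to 395 ± 22 RPKM (-0.65, adjusted p = 1.22e-05). The other 3 falls were the adaptor ELOC (-0.29, adjusted p = 0.0232), the RING subunit RBX1 (-0.30, adjusted p = 0.00666) and the hydroxylase anchor FKBP8 (-0.29, adjusted p = 0.0235). Of these 4 falls, only that of ELOB passed with sizes set to total reads, and the count was also 1 with limma on RPKM values. It was 2 with length and GC trends removed, 2 at a mean RPKM of at least 5, and 2 without sh-luc library 3 or without sh-IUR-5 library 3. ELOC lost its call without sh-luc library 2 or 3 or sh-IUR-5 library 1 or 3 (adjusted p from 0.0577 to 0.0929). FKBP8 lost it without sh-luc library 1 or 3 or sh-IUR-5 library 2 or 3 (adjusted p from 0.0529 to 0.12).

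The coactivators that HIF1AN keeps away were measured with their competitors, 4 genes in all, of which 2 rose and 2 did not pass. Among them, the acetyltransferase EP300 rose from 3.22 ± 0.0577 to 4.31 ± 0.415 RPKM (log2 fold change 0.42, edgeR adjusted p = 0.00201). CITED2, which competes with HIF alpha for that coactivator, rose from 118 ± 10 to 166 ± 11.6 RPKM (0.49, adjusted p = 0.000309). CREBBP and CITED4 did not pass. The shares called over all features were 20.8% higher and 19.8% lower. With length and GC trends removed, EP300 no longer passed (0.15, adjusted p = 0.107).

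Turning to the targets, VEGFA encodes the main growth factor for blood vessels. It held 394, 269 and 234 reads in sh-luc and 802, 445 and 395 reads in sh-IUR-5. Its levels of 14.8, 11.2 and 9.69 RPKM overlapped with 18.9, 14.3 and 12.4 RPKM, because library 1 was the highest of both groups. The log2 fold change of 0.36 had a 95% interval from 0.013 to 0.70 (edgeR adjusted p = 0.0908) and did not pass the test. Without sh-luc library 1 it was 0.55 (adjusted p = 0.0131), without sh-IUR-5 library 3 it was 0.48 (adjusted p = 0.0281), and without sh-IUR-5 library 1 it was 0.16 (adjusted p = 0.367). With the series number of the labels as a term, which compares library 1 with library 1 and the others among themselves, the log2 fold change was 0.35 (adjusted p = 0.000866). VEGFA lies at chr6:43770184-43786487 on the plus strand.

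The rest of the VEGF family was mostly below the minimum level for a test. Of 7 further ligands and receptors, only the ligand VEGFB reached the minimum level, at 59.3 ± 5.62 RPKM in sh-luc and 48.4 ± 4.99 RPKM in sh-IUR-5. Its log2 fold change of -0.29 (edgeR adjusted p = 0.0274) was lost without sh-luc library 1 (-0.21, adjusted p = 0.119), sh-IUR-5 library 2 (-0.26, adjusted p = 0.0986) or sh-IUR-5 library 3 (-0.24, adjusted p = 0.103), with sizes set to total reads (-0.09, adjusted p = 0.509) and with length and GC trends removed (-0.031, adjusted p = 0.779). The receptor KDR, the coreceptor NRP1 and the lymphatic ligand VEGFC, named after their values were seen, held 0 reads in every library.

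BNIP3 and BNIP3L encode related receptors of the outer mitochondrial membrane that hand mitochondria to the autophagosome, and BNIP3L is known for clearing mitochondria from maturing red cells. BNIP3L rose from 19.4, 17.8 and 18.3 RPKM to 30.5, 25.5 and 26.2 RPKM without overlap. It held 274, 229 and 236 reads against 691, 423 and 445, and its rise was 1.48-fold (log2 fold change 0.57, SE 0.101, edgeR adjusted p = 0.000494). The gene lies at chr8:26383054-26505636 on the plus strand.

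BNIP3, the strongly hypoxia-inducible member of the pair, stayed more abundant but did not pass. Its levels were 52.6, 57.1 and 58.2 RPKM in sh-luc and 54.5, 61.6 and 61.6 RPKM in sh-IUR-5, which overlapped. The log2 fold change was 0.081 with a 95% interval from -0.10 to 0.26 (edgeR adjusted p = 0.462), so a rise beyond 0.26 lay outside the interval. With sizes set to total reads it was 0.28 (adjusted p = 0.0105). BNIP3 lies at chr10:131967684-131981967 on the minus strand, and since 44 annotated pseudogenes carry its name, its count is uncertain where reads fit several copies.

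The ratio of BNIP3 to BNIP3L shifted within the libraries. It was 2.72, 3.2 and 3.17 in sh-luc and 1.78, 2.42 and 2.35 in sh-IUR-5, lower in every sh-IUR-5 library by 0.48 on the log2 scale (exact permutation p = 0.1, the smallest possible). Library 1 had the lowest ratio of each group.

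Among 9 further mitophagy receptors and their ATG8 partners, 1 rose, 1 fell and 7 did not pass, with a median log2 fold change of -0.12. For comparison, 20.8% of all features were called higher and 19.8% lower. MAP1LC3A, an ATG8 protein that coats autophagosomes, fell from 4.81 ± 1.14 to 2.07 ± 0.0674 RPKM (log2 fold change -1.23, edgeR adjusted p = 0.000225). The receptor BCL2L13 rose from 21.3 ± 1.1 to 25.1 ± 1.64 RPKM (0.23, adjusted p = 0.0371). That rise was lost without sh-luc library 2 (0.21, adjusted p = 0.112), sh-luc library 3 (0.21, adjusted p = 0.116), sh-IUR-5 library 1 (0.20, adjusted p = 0.0825) or sh-IUR-5 library 2 (0.22, adjusted p = 0.111).

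A wider list of 37 known HIF targets held 27 that could be tested. Of these, 10 rose, 3 fell and 14 did not pass, with a median log2 fold change of 0.29. Over all 22062 features tested, 20.8% were called higher and 19.8% lower. The fit of the 10290 matched genes alone gave 2572 higher and 2378 lower. With sizes set to total reads, 17 of the targets rose. That scaling also raised the calls of higher level over all features from 4580 to 8062, with a median log2 fold change of 0.21. The largest rise was that of TFRC, the transferrin receptor, from 65.3 ± 2.32 to 141 ± 13.3 RPKM (log2 fold change 1.12, edgeR adjusted p = 2.32e-06). The study singled this gene out on these samples, so it is not independent evidence of the list's direction. The neuronal-type glucose transporter SLC2A3 followed (0.81, adjusted p = 0.000148), with the collagen-modifying enzyme PLOD2 (0.73, adjusted p = 4.85e-05) and the repressor BHLHE40 (0.73, adjusted p = 0.0232). The call of BHLHE40 was lost without sh-luc library 2 (0.64, adjusted p = 0.0779), sh-luc library 3 (0.68, adjusted p = 0.0843) or sh-IUR-5 library 1 (0.35, adjusted p = 0.131).

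The 3 targets that fell were ANKRD37, from 16.9 ± 1.46 to 9.51 ± 2.23 RPKM (log2 fold change -0.85, edgeR adjusted p = 0.000633), the cytokine MIF (-0.41, adjusted p = 0.000921) and the mitochondrial protein FAM162A (-0.34, adjusted p = 0.00418). MIF no longer passed with length and GC trends removed (-0.032, adjusted p = 0.73), and FAM162A no longer passed with sizes set to total reads (-0.14, adjusted p = 0.142). Without sh-IUR-5 library 1 the number of falling targets was 5. The list therefore moved in both directions. The glycolytic enzymes LDHA and PGK1, named after their values were seen, had log2 fold changes of -0.018 (adjusted p = 0.902) and 0.076 (adjusted p = 0.431). The glucose transporter SLC2A1 (0.45, adjusted p = 0.00149) and the kinase PDK1 (0.48, adjusted p = 0.0138), named in the same way, were among the 10 targets that rose. CA9, the carbonic anhydrase often used as a marker of hypoxia and also named afterwards, held 1 read in 1 library and 0 in the others.

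**Figure D3:**
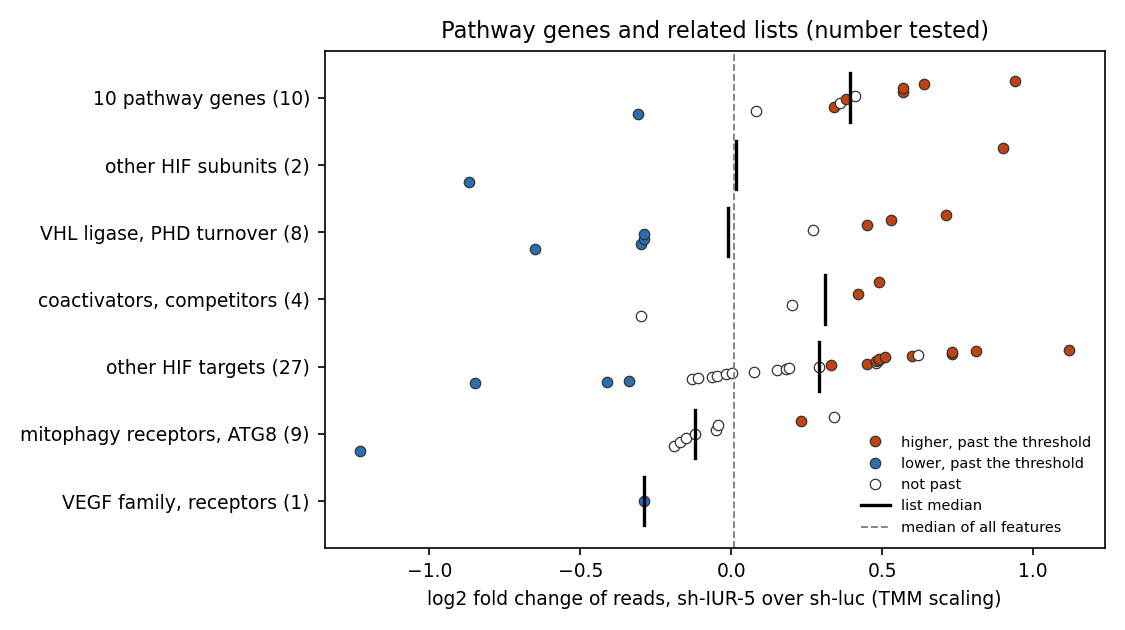
Log2 fold change of every tested gene by list, with filled points past the threshold, a bar at the median of each list and a dashed line at the median of all features (0.0077). The 10 pathway genes have a median of 0.39 and the 27 other HIF targets one of 0.29, while the VHL ligase list spreads to both sides around -0.011.

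The levels per length fell in the same order in both groups, from EGLN2 through BNIP3, VHL, BNIP3L, ARNT, VEGFA, HIF1AN, HIF1A and EGLN1 to EGLN3. In sh-luc the means ran from 81.7 ± 3.63 to 2.73 ± 0.212 RPKM, and only ARNT and VEGFA overlapped as neighbours. In sh-IUR-5 they ran from 65.8 ± 5.09 to 3.64 ± 0.489 RPKM, and EGLN2 and BNIP3 overlapped as well. The order thus stayed as it was although the genes changed unequally.

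The single rows were examined next, since isoforms of a gene stand apart in the table. Of the 53 rows, 18 reached the minimum level, of which 8 were higher, 2 were lower and 8 did not pass, beside 19.2% higher and 18.1% lower among all 38204 rows tested. All 3 HIF1A rows rose, with log2 fold changes from 0.81 to 1.03 and edgeR adjusted p from 1.59e-05 to 0.000122. Both VHL rows rose (0.36 and 0.43) and both EGLN2 rows fell (-0.32 and -0.29). Rows of a gene can share reads, and the rule for such reads is not given. Agreement between rows of a gene is thus not independent of its sum. The 2 EGLN2 rows have the same length and split the gene's reads almost evenly, the first with 48.7% to 51.8% in sh-IUR-5 and 49.8% to 50.9% in sh-luc. Of the 2 HIF1AN rows, the curated one passed (0.37, adjusted p = 0.04) and the predicted one did not (0.31, adjusted p = 0.0905).

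ARNT showed what the split into rows does to a gene with many isoforms. Its 19 rows each held 29 to 45 reads in sh-luc library 1 and 69 to 105 reads in sh-IUR-5 library 1, and none reached the minimum level by itself. In a fit with no minimum their log2 fold changes ran from 0.26 to 0.90 and 9 of them passed, whereas the sum over the rows passed with 0.57. VEGFA has 20 rows, of which 4 were tested and none passed, with log2 fold changes from -0.084 to 0.44. A row of 642 bases held the most reads of those, 16% to 23.5% of the gene's reads in sh-luc and 17.3% to 21.8% in sh-IUR-5. Another VEGFA row held 7.26% to 9.14% in sh-luc and 5.06% to 6.73% in sh-IUR-5 (exact permutation p = 0.1, the smallest possible). It was the only 1 of 15 rows of these genes whose share did not overlap between the groups, beside 19.3% of 23754 rows over all genes. Shares also depend on how reads that fit several rows were assigned.

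**Figure D4:**
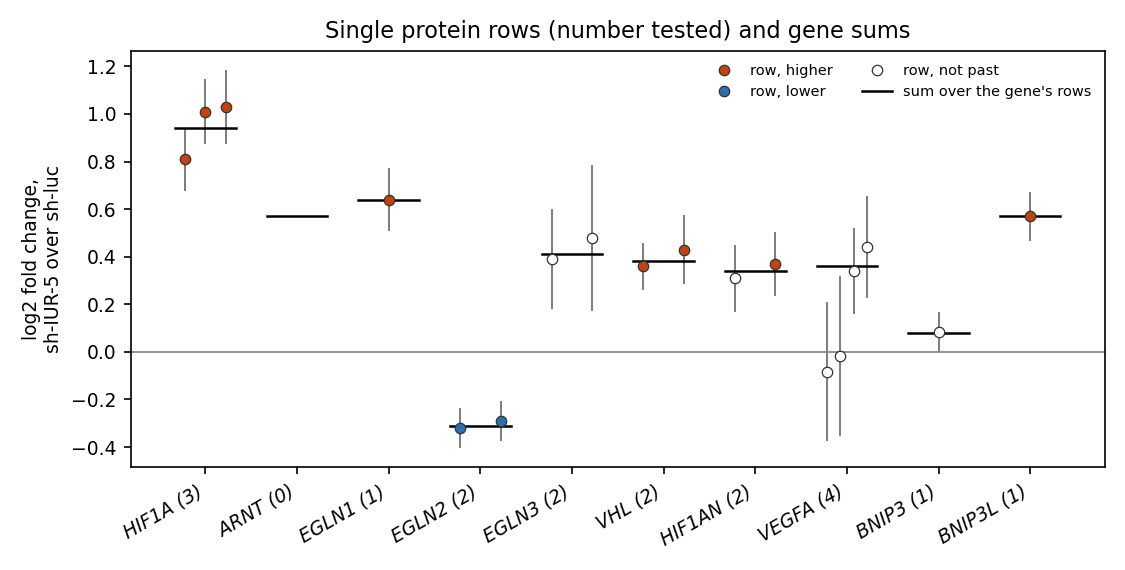
Log2 fold change of each tested row, with its standard error, beside the value of the summed reads of the gene as a bar, and the number of tested rows in parentheses. The 3 HIF1A rows lie between 0.81 and 1.03 and the 2 EGLN2 rows at -0.32 and -0.29, while the 4 VEGFA rows spread from -0.084 to 0.44 and ARNT has no row at the minimum level.

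The size of these differences depended on how the libraries were set against each other. TMM factors were 0.924 to 0.94 in sh-luc and 1.05 to 1.11 in sh-IUR-5, and setting sizes to total reads moved the median log2 fold change of all features from 0.0077 to 0.21. With TMM scaling 51.2% of the calls over all features were higher, against 79.6% with total reads. With total reads, HIF1A had a log2 fold change of 1.14, VHL of 0.58, EGLN3 of 0.61 (edgeR adjusted p = 0.0114) and VEGFA of 0.56 (adjusted p = 0.0166), the last 2 then past the threshold. A change of library sizes shifts all genes by nearly the same amount. EGLN2 and BNIP3 therefore kept nearly the same distance to the moved median, as the other genes did.

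Base composition moved with the differences as well. Over 10170 genes with a known coding sequence, the median log2 fold change fell from 0.17 in the lowest of 4 equal bins of GC content to -0.11 in the highest. HIF1A has a coding GC content of 40.8%, while EGLN2 has 64.3%, VEGFA 62.4%, VHL 61.7% and EGLN1 60.9%. With each library's trends on length and GC removed, the log2 fold change of HIF1A was 0.66 (edgeR adjusted p = 0.000155), that of ARNT 0.38 (adjusted p = 0.00608) and that of EGLN2 -0.20 (adjusted p = 0.0135). VHL moved the other way to 0.60 (adjusted p = 0.000257) and EGLN1 to 0.71 (adjusted p = 0.00312). EGLN3 (0.55, adjusted p = 0.0308) and VEGFA (0.44, adjusted p = 0.0349) then passed, and HIF1AN (0.26, adjusted p = 0.0594) did not. Both trends were removed together, so the separate parts of length and GC in these shifts were not tested. ARNT and BNIP3L had similar coding GC contents of 51% and 50.5%, with longest rows of 2370 and 660 bases. From 0.57 each with TMM scaling, their log2 fold changes went to 0.38 and 0.62. HIF1A, ARNT, EGLN1, VHL and BNIP3L passed in every fit in which they were tested.

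**Figure D5:**
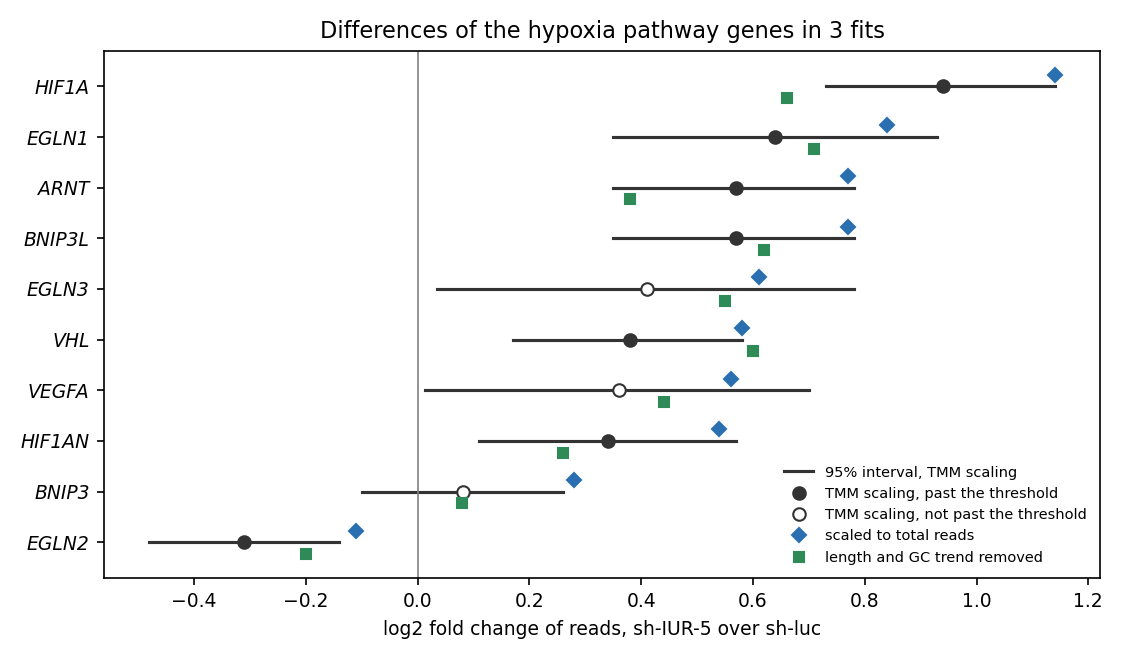
Log2 fold change of the 10 genes with TMM scaling and its 95% interval (filled where past the threshold), with sizes set to total reads, and with length and GC trends removed. HIF1A runs from 0.66 to 1.14 and EGLN2 from -0.31 to -0.11 over the 3 fits, and no gene changes its sign.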

How the data were processed

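The 6 libraries of K562 cells, 3 sh-luc and 3 sh-IUR-5, were grouped by their labels. The tools named in the submitters' processing notes are CASAVA 1.8, Trimmomatic 0.32, Bowtie2 2.1.0 and SAMtools 0.1.19, with hg38. The authors deposited raw read counts per RefSeq protein accession and RPKM made from them. The rule for reads that fit several rows is not given in the sources used here. The authors' own comparison table (pooled reads, fold changes, p and q values) was not used. The pathway genes and all related lists were chosen with earlier results of these data known. All 10 pathway genes are named, and of each related list up to 4 genes per direction with the largest change past the threshold.

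Accessions were matched to genes by the RefSeq list of GRCh38.p14 for 64.68% of rows and 83.87% to 84.8% of reads, and unmatched rows stayed as features. Counts were summed per gene, features with a mean RPKM of at least 1 were kept, and edgeR 4.0.16 (R 4.3.3, TMM, quasi-likelihood, two-sided) was run with Benjamini-Hochberg adjustment over all features. Adjusted p-values given without a tool are from edgeR. Levels divide the summed reads by the longest row, which understates genes with short isoforms. For ratios and row shares, an exact permutation test (two-sided) over the libraries was used. Coordinates are from GENCODE 44. On simulated counts for this comparison, 190 of 200 changed features of 22062 were recovered with 13 false calls. In the data 8948 features passed, and recovery at the fold changes of the pathway genes was not tested. Alternatives were DESeq2 1.42.0 and its size factors, limma 3.58.1 on log2(RPKM + 0.1), total-read scaling, other minimum levels, single rows for genes, a replicate block, the label series as a term, the removal of length and GC trends (mgcv 1.9.3) and each library left out. Matched genes only, matched genes with a GC value, and the trend removal together with the replicate block were added after the data were seen. Replicate libraries differed beyond sampling noise (chi-square per feature from 2.27 to 10.9), so none was a repeat deposit. Libraries 2 and 3 of a group, which share a series number, differed less from each other (3.14 in sh-luc, 2.27 in sh-IUR-5). Pairs with library 1 gave 5.72 to 10.9. The main fit held no term for the series, so its 3 libraries per group may not be equally independent.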

Additional observations from a re-analysis of the deposited data

How the results depend on the processing

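No called result changed its direction in any alternative run. Among the values for single genes and for lists outside the pathway, 742 stayed on their side of the threshold or near their main value, 56 lost their call, 15 gained one and 37 counts moved by over 1.5 times. Over all features, 8948 passed, and 5553 passed with a mean RPKM of at least 5, 4950 with matched genes only, 4896 with matched genes that have a GC value, 4697 with length and GC trends removed and 5838 with these trends removed and the replicate block, since each of these tested fewer features. Leaving out a library gave 7158 to 8592. The pathway genes called lower were 0 with total-read scaling and 0 with limma on RPKM, where EGLN2 lost its call. Their single rows called higher were 13 with total-read scaling and 16 with no minimum level, and those called lower were 0 with total-read scaling and 1 to 2 with a library left out (1 without sh-IUR-5 library 2 or library 3).

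Same-numbered libraries deviated together by correlations of 0.341, 0.0997 and -0.00909, so the numbers were not taken as pairs. With a replicate block 10697 features passed, and 11252 with the label series as a term, against 8948 in the main fit. VEGFA passed with the replicate block (log2 fold change 0.35, edgeR adjusted p = 0.00142), and no other of the 10 genes changed its call. At a mean RPKM of at least 5, EGLN1 and EGLN3 were not tested, and ARNT was not tested with a single row per gene. EGLN3 had the fewest reads of the 10 genes, at most 84 in a library, and the part of depth in its missing the threshold was not tested.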

Other observations

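DDIT4, a stress and hypoxia target in the wider list that was singled out after its values were seen, was highest in library 1 of both groups, as VEGFA was. Its levels were 37.2, 22.4 and 22.3 RPKM in sh-luc libraries 1 to 3 and 37.8, 18.7 and 18.8 RPKM in sh-IUR-5 libraries 1 to 3. Libraries 2 and 3 of each group, which share a series number in the labels, lay close together. The log2 fold change of -0.11 had a 95% interval from -0.63 to 0.41 (edgeR adjusted p = 0.743).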
